A study of Mus musculus with 65 samples.

Results

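The genes described here are 10 members of the cadherin family, *Cdh1*, *Cdh2*, *Cdh3*, *Cdh4*, *Cdh6*, *Cdh7*, *Cdh8*, *Cdh11*, *Cdh13* and *Cdh20*, taken by name from the 25239 genes of the expression table. They were read in every library, across days 3 to 6, sonic hedgehog (Shh) agonist concentrations and sorted cell types. HM1 cells, a mouse embryonic stem (ES) cell line, were differentiated with bFGF and LGK, then bFGF, the Wnt signalling activator CHIR99021, SB-431542 and DMH1, into neuromesodermal progenitors (NMPs), which were collected on day 3 in 3 libraries. From day 3 the cultures received 100 nM retinoic acid with 0, 10, 100 or 500 nM SAG, a small molecule that activates Smoothened in place of Shh. Collections on days 4, 5 and 6 were PFA-fixed, labelled with antibodies, gated on SOX2 and separated into progenitors of the ventral neural tube. From ventral to dorsal these were p3 (NKX2.2 positive without OLIG2, 15 libraries) and pMN (OLIG2 positive without NKX2.2, 15). Then came p2 (NKX6.1 and PAX6 positive, 15) and p0-1 (PAX6 positive without NKX6.1, 17). p3 and pMN came from 100 and 500 nM SAG, p2 from 10 and 100 nM, and p0-1 from 0 and 10 nM. The day 4, 5 and 6 libraries numbered 16, 24 and 22, and replicates were independent differentiations of this single line. A sorted population was a bulk sample, so fewer expressing cells and less RNA per cell cannot be told apart.

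Classical cadherins are membrane proteins that hold neighbouring cells together. Their extracellular repeats bind cadherins on the next cell, mostly of the same kind, and their cytoplasmic tail binds β-catenin and p120-catenin, which link the junction to actin. E-cadherin (*Cdh1*) and P-cadherin (*Cdh3*) are typical of epithelia, and the exchange of E-cadherin for N-cadherin (*Cdh2*) accompanies formation of the neural plate. *Cdh4* encodes R-cadherin. *Cdh6*, *Cdh7*, *Cdh8*, *Cdh11* and *Cdh20* encode type II cadherins, which are known for patchy expression in the nervous system and for sorting groups of neurons, motor neuron pools among them. *Cdh13* encodes T-cadherin, which is anchored by a lipid and has no catenin-binding tail, so it is not a classical cadherin in the strict sense.

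The sorted types differed in their sorting factors, with overlap for some. On days 5 and 6 *Nkx2-2* had 121 to 426 normalised reads in the 11 p3 libraries and at most 98.1 in the others. *Olig2* had 1368 to 6214 in the 11 pMN libraries, but up to 1741 in p3 and 1452 in p2. *Nkx6-1* had 134 to 702 and *Pax6* 1847 to 5805 in the 12 p2 libraries. In the 12 p0-1 libraries *Nkx6-1* had at most 67.5 and *Nkx2-2* was at 0, while *Dbx1*, a p0 gene, had 917 to 3475, against at most 430 in the others. A normalised read is a read divided by the size factor of its library, which removes differences in depth. Each library held 7615114 to 13484815 reads, with 9718 to 15963 genes detected. The 4 libraries under 11000 detected genes were p3 at 100 nM on day 4 (replicate 3), day 5 (replicate 2) and day 6 (replicate 2) and p2 at 100 nM on day 6 (replicate 3).

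The genes are given by their mm10 positions, from first to last base. *Cdh3* (106510852 to 106556911), *Cdh1* (106603350 to 106670247), *Cdh11* (102632095 to 102785111), *Cdh8* (99024471 to 99416471) and *Cdh13* (118283611 to 119324927) all lie on chromosome 8. *Cdh20* (104768520 to 104995481) and *Cdh7* (109982900 to 110139903) lie on chromosome 1, *Cdh4* on chromosome 2 (179442431 to 179899375), *Cdh6* on chromosome 15 (13028699 to 13173675) and *Cdh2* on chromosome 18 (16588877 to 16809246). Counts were summed over exons of each gene.

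All 10 genes passed the filter of a mean of at least 10 normalised reads, *Cdh7* narrowly with 11.6 and *Cdh20* with 14.7, up to *Cdh2* with 4416. Of the 10 genes only 4 had a promoter entry in the RefSeq table for build GRCm38.p6, and these 4 are shown for that reason. Each line gives 120 bases ending just before the annotated start of the gene, and capitals mark E-boxes, sites of the letters CANNTG.

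*Cdh6*, chr15:13173676-13173795, minus strand: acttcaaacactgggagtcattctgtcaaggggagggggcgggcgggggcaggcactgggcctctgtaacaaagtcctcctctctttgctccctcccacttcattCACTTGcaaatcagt
*Cdh7*, chr1:109982780-109982899, plus strand: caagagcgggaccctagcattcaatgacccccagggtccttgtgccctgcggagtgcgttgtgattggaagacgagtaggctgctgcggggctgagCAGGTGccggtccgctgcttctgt
*Cdh8*, chr8:99416472-99416591, minus strand: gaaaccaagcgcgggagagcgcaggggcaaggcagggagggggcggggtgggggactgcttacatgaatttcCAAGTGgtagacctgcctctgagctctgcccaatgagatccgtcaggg
*Cdh20*, chr1:104768400-104768519, plus strand: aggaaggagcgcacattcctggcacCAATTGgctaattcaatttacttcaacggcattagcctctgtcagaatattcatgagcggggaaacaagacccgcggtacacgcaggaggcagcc

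CANNTG reads alike on both strands. It stood once in each of these 4 windows, 15 bases before the start in *Cdh6*, 24 in *Cdh7*, 48 in *Cdh8* and 95 in *Cdh20*. With every annotated start of these genes counted, CANNTG was in 5 of 6 windows. The window without it belongs to a further start of *Cdh7*. Of all 32851 promoters in the table, 40.2% had it in the same window. CACCTG or its reverse complement CAGGTG, the form that Snail and Zeb repressors are known to bind, was present in the *Cdh7* window and in 8.43% of all promoters. *Cdh7* has further annotated starts in the table, of which 1 also had CAGGTG in this window. The motifs were chosen after the data had been seen, and a match describes letters, not binding.

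N-cadherin held the largest share in every library of days 4 to 6, and E-cadherin in the NMPs. Levels were compared between genes as normalised reads per kb of exon. In NMPs *Cdh1* made up 79.97% ± 5.07 (SD, n = 3) of the summed level of the 10 genes, and *Cdh2* 13.3% ± 4.25. On day 4 the share of *Cdh1* was 5.09% ± 4.73 (n = 16) and that of *Cdh2* 65.01% ± 7.42. *Cdh6* then held 15.9% ± 3.74 and *Cdh4* 9.30% ± 4.99. By day 6 (n = 22) *Cdh2* stood at 74.3% ± 7.32, with single libraries from 56.4% to 85.4%, *Cdh4* at 11.4% ± 4.92, *Cdh11* at 5.66% ± 3.88 and *Cdh6* at 3.24% ± 3.16. The summed level itself was 3221 ± 1164 normalised reads per kb in NMPs, 1230 ± 233 on day 4, 1116 ± 274 on day 5 and 1447 ± 428 on day 6.

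**Figure D1:**
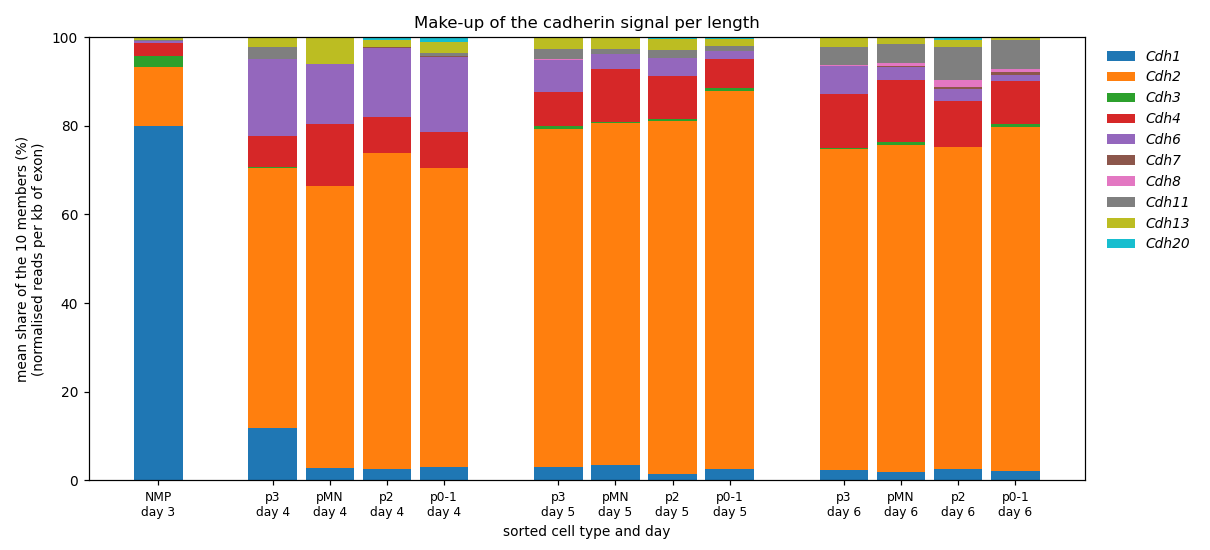
Stacked bars give the mean share (%) of each of the 10 cadherins in their summed normalised reads per kb of exon, for NMPs on day 3 and for each sorted type on days 4 to 6. Blue *Cdh1* fills 79.97% of the NMP bar, orange *Cdh2* most of every later bar, and purple *Cdh6* is widest on day 4.

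The first question was how the cadherins changed with time, as NMPs became neural and the progenitors aged. Between day 3 and day 4 the medium and the cell type changed as well, so these cannot be told apart from time. Differences between days were tested with limma on log2(value + 1), and a call needed more than 2-fold with a p under 0.01 after Benjamini-Hochberg adjustment over all 13964 genes tested. Of 30 pairs of gene and interval, 4 were called and 11 had an unadjusted p below 0.05. *Cdh3* fell from day 3 to day 4, *Cdh6* fell from day 4 to day 5, and *Cdh8* and *Cdh11* rose from day 5 to day 6. Of all genes tested, 3.49% were called from day 3 to day 4, 4.3% from day 4 to day 5 and 0.852% from day 5 to day 6. The median log2 change of all genes was -0.40 from day 3 to day 4 and 0.014 and 0.0037 over the later intervals, against 0.18, -0.14 and 0.28 for the 10 cadherins.

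The epithelial cadherins were the NMP pair. *Cdh3* had 183, 299 and 524 normalised reads in the 3 NMP libraries. On day 4 it ranged from 0 to 56.6 with a median of 0, and 10 of 16 libraries had none. No day 4 library reached the NMPs, and the change was -7.37 ± 1.37 (SE) on the log2 scale (adjusted p = 0.00015, lower in 16 of 16 libraries). *Cdh3* then reappeared unevenly: 13 of 24 day 5 and 15 of 22 day 6 libraries had reads, up to 155. E-cadherin showed a drop of like size with more scatter. *Cdh1* had 8103, 9529 and 16933 normalised reads in NMPs and 0.911 to 960 on day 4, with a median of 198. The ranges did not overlap, as for 5.96% of all genes over this interval, but the log2 change of -6.49 ± 2.31 had an adjusted p of 0.087 and was not called. *Cdh1* passed with a pseudocount of 10 and with array weights, and its adjusted p ran from 0.00078 to 0.32 over all the alternatives and omissions of a library. Libraries lay far apart on later days too: 8 of 24 day 5 libraries and 10 of 22 day 6 libraries had no *Cdh1* read, while others had up to 622 and 688.

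The marker list for surface epithelium moved with these genes. The summed level of its 5 genes (*Epcam*, *Krt8*, *Krt18*, *Grhl2*, *Trp63*) was 9008 to 13365 normalised reads in NMPs, 652 to 2633 on day 4 and 1.77 to 2148 on day 6. *Trp63* was at 0 in NMPs. The list for pluripotent cells, 4 genes, went from 781 to 1511 in NMPs to between 1.46 and 96.3 on day 4. Their part in the fall of *Cdh1* and *Cdh3* was not tested.

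N-cadherin took the opposite course on a smaller scale. *Cdh2* had 1357, 2082 and 2496 normalised reads in NMPs and 2791 to 5922 on day 4 (median 3632). All 16 day 4 libraries lay above the highest NMP library. The change was 0.98 ± 0.23 on the log2 scale (adjusted p = 0.0036), just under the 2-fold needed for a call. It was called in 4 of the 10 alternatives. It was also called without NMP replicate 3, or without 1 of 5 day 4 libraries (p0-1 at 0 nM replicate 2, p2 at 100 nM replicate 2, p3 at 100 nM replicate 3, pMN at 100 nM replicate 3 and p3 at 500 nM replicate 1), with changes from 0.74 to 1.17 over the 65 omissions. Later intervals were small: *Cdh2* had a median of 4158 on day 5 and 5039 on day 6, a log2 change of 0.24 ± 0.11 between them (adjusted p = 0.23).

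*Cdh6*, a type II cadherin of early neural tissue, was a day 4 gene. NMPs had 30.6, 72.0 and 126 normalised reads. Day 4 had 807 to 2710, with a median of 1520, and no overlap with NMPs. The log2 change of 4.59 ± 1.31 had an adjusted p of 0.022 and was not called, although it was called in 4 of the 10 alternatives and when pMN 500 nM day 5 replicate 2, p0-1 10 nM day 6 replicate 2 or p2 100 nM day 6 replicate 3 was left out (adjusted p 0.0081 to 0.18 over the omissions). On day 5 the gene had 0 to 1196 normalised reads with a median of 301, and all 24 libraries lay below the day 4 median. This change of -3.05 ± 0.70 was called (adjusted p = 0.0016) under all 10 alternatives and in all 65 omissions of a library. Day 6 had 0 to 1958 with a median of 207, and the change from day 5 was -0.14 ± 0.61 (adjusted p = 0.94).

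A test free of the model gave a similar order for day 4 against day 3. An exact two-sided permutation test over the 969 arrangements of 16 and 3 libraries was run on each of the 10 genes, treating the day 4 libraries as exchangeable whatever their type. *Cdh1*, *Cdh2*, *Cdh3* and *Cdh6* each gave 0.0021, the smallest value these numbers allow. The other 6 gave 0.12 (*Cdh20*) to 1 (*Cdh7* and *Cdh8*), with *Cdh4* at 0.65. These p-values are not adjusted for the 10 tests. Types of the same SAG concentration may be sorted parts of the same culture. The 16 day 4 libraries may therefore not be independent, and the p-values may be too small.

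**Figure D2:**
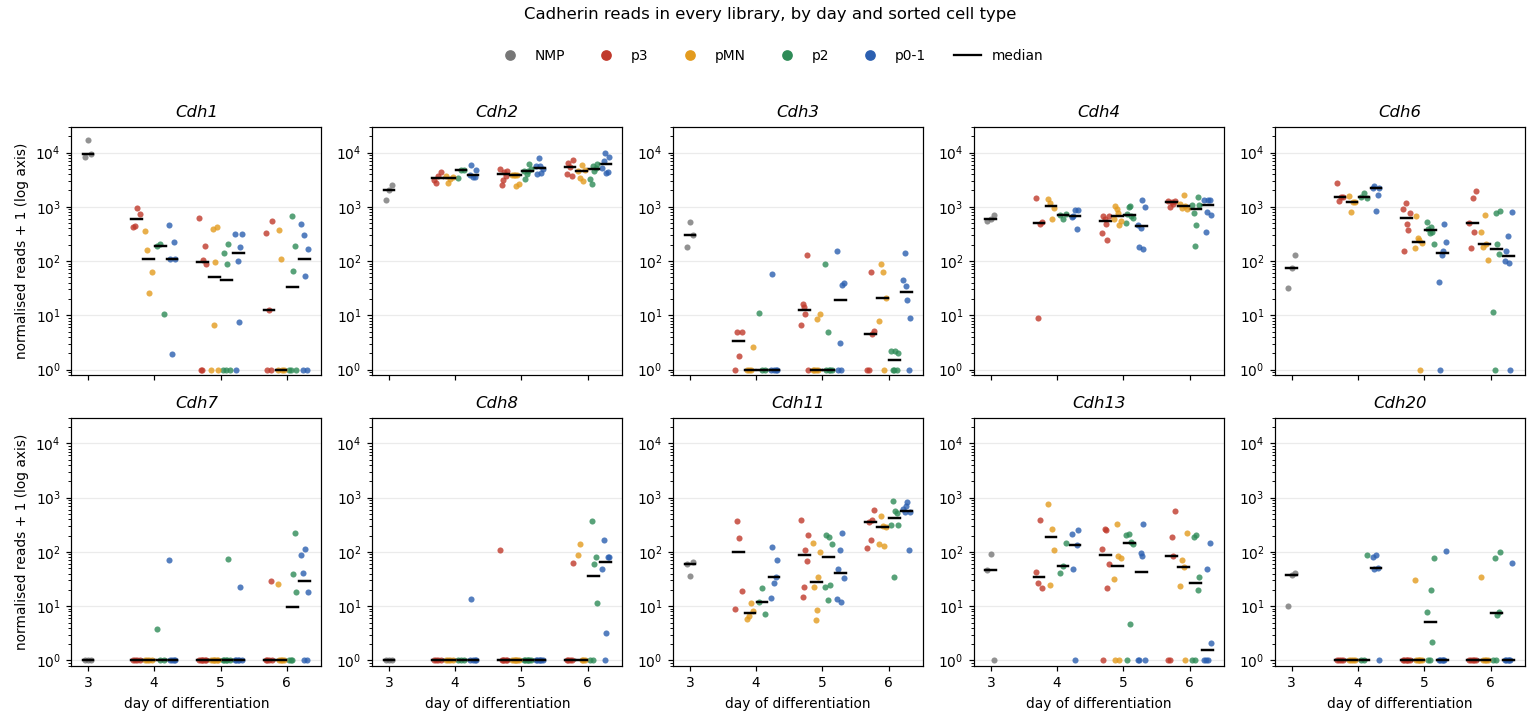
Each point is a library, plotted as normalised reads + 1 on a log axis against day of differentiation (3 to 6), coloured by sorted type, with black bars for medians; a point at 1 is a library without reads. *Cdh1* and *Cdh3* sit highest in the 3 NMP libraries, *Cdh6* peaks on day 4, *Cdh8* and *Cdh11* rise on day 6, and *Cdh20* is at 0 in every p3 library.

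*Cdh11* and *Cdh8* were the late cadherins. *Cdh11*, also called OB-cadherin, is known from mesenchyme and from developing brain and spinal cord. It had 4.80 to 369 normalised reads on day 4 (median 15.8), 4.60 to 388 on day 5 (median 39.7) and 33.1 to 871 on day 6 (median 375). The ranges of days 5 and 6 overlapped, but 21 of 22 day 6 libraries lay above the day 5 median. The log2 rise from day 5 to day 6 was 2.71 ± 0.49 (adjusted p = 0.00027), and it was called under all 10 alternatives and all 65 omissions. The interval from day 4 to day 5 gave 1.41 ± 0.56 (adjusted p = 0.090). From day 3 to day 4 the modelled change was -1.51 by the main scaling and 0.17 after quantile normalisation, so no direction can be given for it.

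*Cdh8*, a type II cadherin of neuronal circuits, had no read in NMPs, in 15 of 16 day 4 libraries and in 23 of 24 day 5 libraries. The exceptions were a p0-1 library with 12.8 on day 4 and a p3 library with 107 on day 5. On day 6, 12 of 22 libraries had reads, between 2.27 and 366 normalised reads. The log2 rise was 2.81 ± 0.63 (adjusted p = 0.0036). It was called in 8 of the 9 alternatives that tested it, not by edgeR, and was lost when p3 500 nM day 6 replicate 3 was left out (adjusted p = 0.0186). Exons of *Cdh8* overlap those of *Gm15679*, and the use of strand in counting is not stated, so reads of the overlap may belong to either gene.

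*Cdh7* followed the same timing below the threshold. It had reads in 0 of 3 NMP, 2 of 16 day 4, 2 of 24 day 5 and 9 of 22 day 6 libraries. The log2 change from day 5 to day 6 was 1.72 ± 0.56 (adjusted p = 0.069). Over the 46 libraries of days 5 and 6 the log2 levels of *Cdh8* and *Cdh11* had a Pearson r of 0.55, those of *Cdh7* and *Cdh8* 0.44 and those of *Cdh7* and *Cdh11* 0.40. All 3 values include the step between the days, and the libraries share that step.

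The summed level of neuron markers moved with the same step, but not each marker. The 7 genes *Tubb3*, *Elavl3*, *Elavl4*, *Dcx*, *Stmn2*, *Nefl* and *Nefm* summed to 222 to 1323 normalised reads on day 4, 315 to 2592 on day 5 and 1048 to 7222 on day 6. *Nefm* had lower means on day 6 than on day 5 in p2 (5.48 against 18.8) and pMN (5.40 against 31.8). *Stmn2* had means of 327 to 484 in the types on day 4 and 39.7 to 120 on day 5. No marker of the list was at 0 in all libraries of a day. Their part in the rise of *Cdh11* and *Cdh8* was not tested. Over the 46 libraries of days 5 and 6 the log2 level of *Cdh11* and this sum had a Pearson r of 0.53. Within the 22 libraries of day 6 r was -0.19 for *Cdh11*, -0.39 for *Cdh8* and -0.13 for *Cdh7*.

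**Figure D3:**
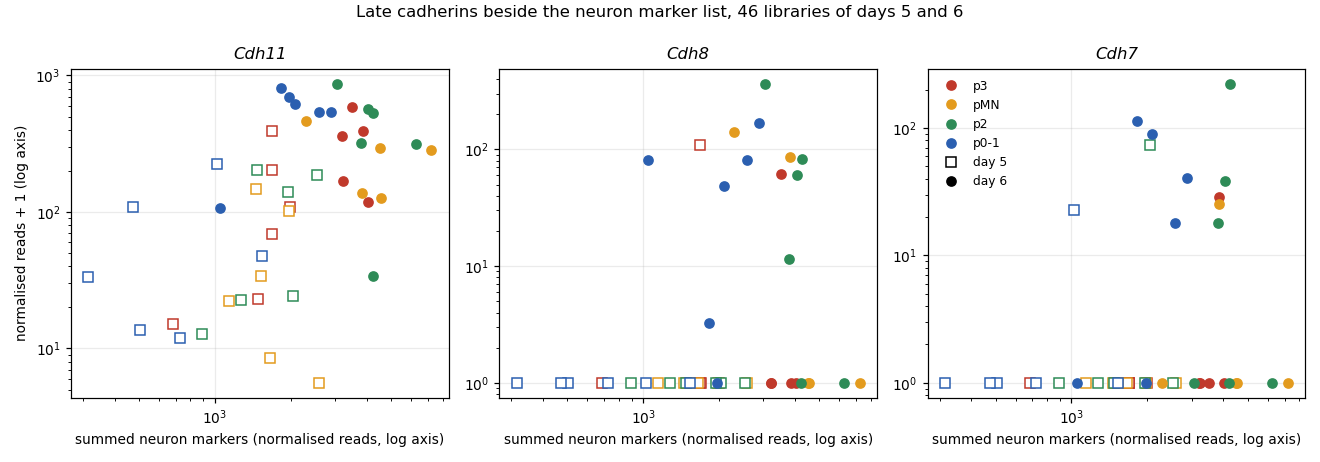
Normalised reads + 1 of *Cdh11*, *Cdh8* and *Cdh7* (log axis) against the summed normalised reads of 7 neuron markers (log axis) in the 46 libraries of days 5 (open squares) and 6 (filled circles), coloured by type. Day 6 lies to the upper right for *Cdh11*, but within day 6 r is -0.19, -0.39 and -0.13.

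The remaining members showed no called change between days. R-cadherin (*Cdh4*) was present in every library, with medians of 594, 688, 608 and 1079 normalised reads on days 3, 4, 5 and 6. Its rise from day 5 to day 6 was 0.73 ± 0.29 on the log2 scale (adjusted p = 0.16). The lowest value, 7.80, came from a p3 library at 500 nM on day 4, beside 484, 517 and 1474 in the other p3 libraries of that day. *Cdh13* scattered widely on every day, with 0 to 771 normalised reads on day 4, 0 to 332 on day 5 and 0 to 566 on day 6, and 17 of its 65 libraries had no read. *Cdh20* had 9.09, 37.1 and 39.4 in NMPs, and reads in 5 of 16, 6 of 24 and 6 of 22 libraries of days 4, 5 and 6.

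The changes from day 4 to day 6 were also taken within each type. Of 40 pairs 1 was called, *Cdh11* in pMN, and 13 had an unadjusted p below 0.05. pMN had 4.80, 5.597, 7.18 and 10.4 normalised reads of *Cdh11* on day 4, and 126, 138, 282, 295 and 461 on day 6. The 2 days were far apart, with a log2 change of 4.86 ± 1.11 (adjusted p = 0.0046). The call was lost without replicate 2 or 3 of 100 or 500 nM on day 4, or without replicate 2 or 3 of 100 nM or replicate 3 of 500 nM on day 6 (adjusted p up to 0.037, change from 4.57 to 5.15 over the 65 omissions). Of all genes, 1.9% were called in pMN, 7.78% in p3, 1.08% in p2 and 1.42% in p0-1.

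In the other types *Cdh11* had changes of 4.84 ± 1.21 in p2 (adjusted p = 0.016), 3.52 ± 1.00 in p0-1 (0.042) and 3.28 ± 1.21 in p3 (0.062), short of the call; in p2 it was called without replicate 3 at 100 nM on day 6. p2 had 6.31, 10.97 and 20.9 normalised reads of *Cdh11* on day 4 and 33.1 to 871 on day 6, without overlap. *Cdh6* had changes of -4.47 ± 1.26 in p0-1 (adjusted p = 0.037), -4.31 ± 1.51 in p2 (0.12) and -2.36 ± 1.39 in pMN (0.41), and the days did not overlap in any of these types. The p0-1 change was called without replicate 3 of p0-1 at 10 nM on day 6 (adjusted p = 0.0060). Of all genes, 4.63% did not overlap in p0-1, 10.1% in p2 and 8.67% in pMN. In p3 the change was -1.62 ± 1.51 (0.55), from 1257 to 2710 normalised reads on day 4 (median 1508) to 173 to 1958 on day 6 (median 494), and the ranges overlapped. Whether time courses differed between types was tested by the interaction of day and type. By limma 0 of the 10 genes were called and 0 had an unadjusted p below 0.05, against 2.6% of all genes called. edgeR and DESeq2 also called 0. For *Cdh6* the interaction had an adjusted p of 0.80.

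The second question was whether the sorted domains differ in their cadherins. Averaged over days 5 and 6, the 6 comparisons of types gave 60 pairs, and limma called 0 of them, while 12 had an unadjusted p below 0.05. edgeR also called 0, and DESeq2 called 9 pairs, 5 of *Cdh20*, 3 of *Cdh1* and 1 of *Cdh3*, genes without reads in many of the libraries compared. Of all genes, limma called 0.695% for p3 against pMN, 1.27% for p3 against p2, 1.43% for p3 against p0-1, 0.107% for pMN against p2, 0.96% for pMN against p0-1 and 0.322% for p2 against p0-1. The libraries of 2 types stood apart without overlap in 0 of the 60 pairs, and in 0.11% of the pairs of all genes, so 0 is near the background. Each gene was tested singly, and combinations of cadherins were not tested.

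*Cdh6* had the largest modelled log2 difference between p3 and p0-1 among the 10. The ratio of means was larger for *Cdh7* and for *Cdh20*, which was at 0 in p3. On days 5 and 6 p3 had 155 to 1958 normalised reads (median 494, n = 11), p2 0 to 842 (median 338, n = 12), pMN 0 to 715 (median 213, n = 11) and p0-1 0 to 788 (median 139, n = 12). p3 and p0-1 share no SAG concentration, so type and concentration cannot be told apart in this pair. p3 was higher than p0-1 by 2.98 ± 0.86 on the log2 scale, with all 11 p3 libraries above the p0-1 median. Its adjusted p was 0.036 and ran from 0.0069 to 0.33 over the alternatives. It was called with a pseudocount of 10, without the 4 libraries under 11000 genes, and without replicate 3 of p0-1 at 10 nM on day 6 (0.0077). The steps from p3 to pMN (1.89 ± 0.89, adjusted p = 0.40) and to p2 (1.82 ± 0.86, 0.26) were not called. Within the 500 nM cultures p3 had 342, 371, 483, 768 and 1958 normalised reads and pMN 0, 103, 209, 213 and 239. The libraries did not overlap, as for 1.25% of all genes in this comparison, but the adjusted p was 0.57.

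*Cdh20* was not detected in p3. None of the 15 p3 libraries of days 4 to 6 had a read, against 2 of 15 pMN, 9 of 15 p2 and 6 of 17 p0-1 libraries with reads. On days 5 and 6 p2 had 0 to 98.8 normalised reads (mean 24.4, median 6.42). The mean was at least 9.44-fold above what 3 reads are worth in a p3 library. Without p2 replicate 3 at 10 nM on day 6 this bound was 6.83-fold. In p0-1, 2 of 12 libraries had reads on those days, both at 10 nM, and the mean of 13.8 was at least 5.32-fold above. Without replicate 3 of day 5 the bound was 2.16-fold, and without replicate 3 of day 6 it was 3.64-fold. The log2 difference between p3 and p2 was -2.79 ± 0.86 (adjusted p = 0.053), and -1.55 at 100 nM, the concentration they share. At 10 nM *Cdh20* had reads in 3 of 3 p2 libraries on day 5 and again on day 6. At 100 nM it had reads in 1 of 3 on each of these days. On day 4 the 8 p3 and pMN libraries were at 0, and 5 of the 8 p2 and p0-1 libraries had 47.5 to 88.4 normalised reads. All 5 came from 0 or 10 nM SAG, and both p2 libraries at 100 nM were at 0, so type and SAG concentration cannot be told apart here. The ventral minus dorsal difference that day was -4.12 ± 1.11 (adjusted p = 0.015), short of the call, and it was called without replicate 3 of p0-1 at 10 nM on day 4, 5 or 6, or when p2 100 nM day 6 replicate 2 was left out (adjusted p 0.0039 to 0.16 over the omissions). Limma called 0 of the 10 genes in that comparison, with 2 at an unadjusted p below 0.05, edgeR 0 and DESeq2 1, where 2.91% of all genes were called by limma.

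*Cdh7* and *Cdh8* showed no called difference between types. *Cdh7* had reads on days 5 and 6 in 5 of 12 p0-1 and 4 of 12 p2 libraries and in 1 of 11 pMN and 1 of 11 p3 libraries. The log2 differences were -1.89 ± 0.79 for pMN against p0-1 (adjusted p = 0.29) and -1.67 ± 0.79 for p3 against p0-1 (0.28). *Cdh8* on day 6 had medians of 64.0 normalised reads in p0-1, 34.7 in p2, 0 in pMN and 0 in p3.

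N-cadherin differed little between types. On days 5 and 6 *Cdh2* had 4103 to 9852 normalised reads in p0-1 (median 5404), 2648 to 6250 in p2 (4610), 2562 to 7374 in p3 (4406) and 2436 to 5925 in pMN (3783). pMN was below p0-1 by 0.62 ± 0.15 on the log2 scale (adjusted p = 0.016), with 10 of 11 pMN libraries under the p0-1 median. Other pairs were closer, p3 and p2 differing by -0.0016 with an interval of 2 SE from -0.31 to 0.31. *Cdh4* had medians of 926 in pMN, 754 in p2, 752 in p0-1 and 674 in p3. *Cdh3* had a median of 25.8 in p0-1 and 0 in p2, with reads in 9 of 12 against 5 of 12 libraries and a log2 difference of -2.71 ± 0.88 for p2 against p0-1 (adjusted p = 0.23). *Cdh1*, *Cdh11* and *Cdh13* overlapped between all types, with *Cdh11* at 10.9 to 814 in p0-1, 11.8 to 871 in p2, 14.1 to 589 in p3 and 4.60 to 461 in pMN. On day 4 *Cdh1* was higher in p3 (425, 448, 750 and 960) than the 25.2 to 358 of pMN and the 9.46 to 204 of p2, while p0-1 reached 471, a pattern seen in these values and given without a test.

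**Figure D4:**
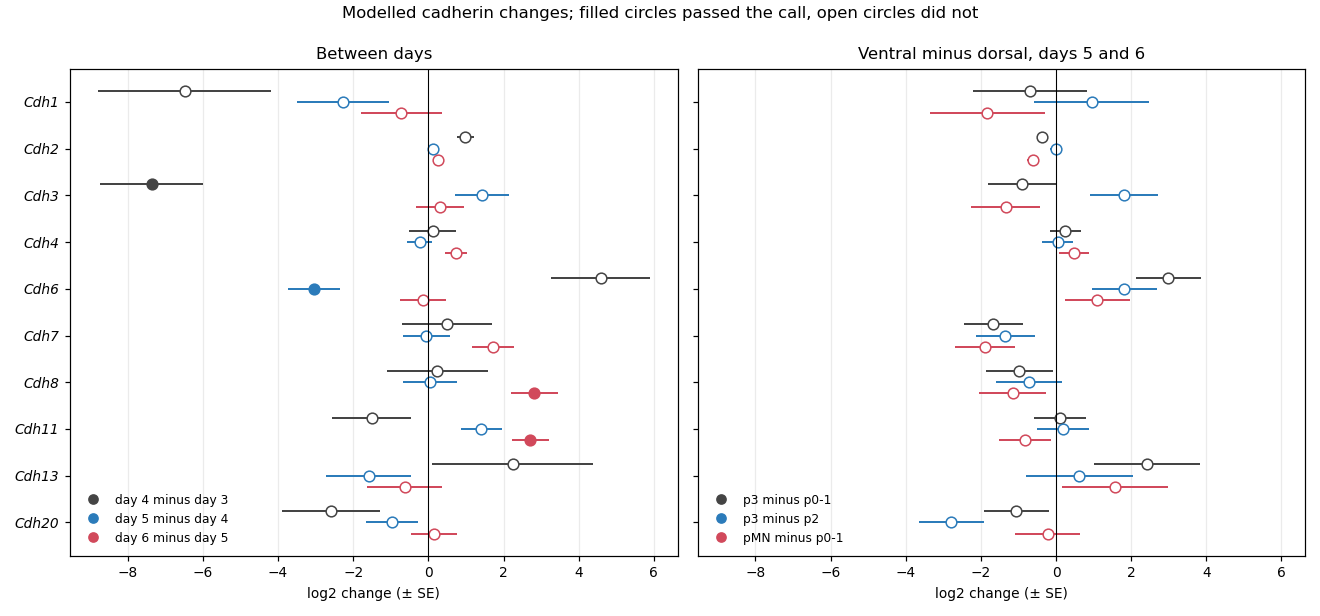
Log2 changes of the 10 cadherins with their SE (bars), between successive days (left) and between ventral and dorsal types on days 5 and 6 (right); filled circles passed the call and open circles did not. The 4 filled circles are all on the left: *Cdh3* at -7.37, *Cdh6* at -3.05, *Cdh8* at 2.81 and *Cdh11* at 2.71.

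Types sorted at the same SAG concentration were also compared. They may come from the same cultures, but the fit took their libraries as independent. In the 5 such comparisons limma called 0 of 50 pairs, with 4 at an unadjusted p below 0.05, edgeR called 0 and DESeq2 3. Of all genes 0.0143% were called for pMN against p2 at 100 nM, 0.752% for p3 against p2 at 100 nM, 0.0215% for p2 against p0-1 at 10 nM, 0.465% for p3 against pMN at 100 nM and 0.122% for p3 against pMN at 500 nM. *Cdh6* was higher in p3 than in p2 at 100 nM by 2.51 ± 1.19 (adjusted p = 0.24).

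The third question was whether SAG concentration changed the cadherins of a given type. Limma called 0 of 40 pairs, 3 had an unadjusted p below 0.05, edgeR called 0 and DESeq2 3. Few genes of any kind were called, with 0.0143% of all genes called between 10 and 0 nM in p0-1, 0.0358% between 100 and 10 nM in p2, 0% between 500 and 100 nM in pMN and 0.0286% between 500 and 100 nM in p3. All 3 pairs under 0.05 were in p2. *Cdh7* was at 0 in all 6 p2 libraries at 100 nM, while at 10 nM it had 0, 0 and 73.1 normalised reads on day 5 and 17.0, 37.6 and 223 on day 6. The log2 difference was -3.91 ± 1.08 with an adjusted p of 0.17, which ran from 0.080 to 0.80 over the alternatives. *Cdh20* gave -2.48 ± 1.18 (adjusted p = 0.59) and *Cdh2* -0.48 ± 0.21 (0.52). In p3, *Cdh6* had means of 784 ± 677 at 500 nM (SD, n = 5) and 728 ± 542 at 100 nM (n = 6), a log2 difference of 0.31 ± 1.26.

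Other junction genes were read from lists that fit cadherin biology. Of 9 other classical cadherins 3 passed the filter. Limma called 0 of their 9 pairs between days (3 at an unadjusted p below 0.05) and 0 of 18 between types (5), edgeR 1 and 0, and DESeq2 5 and 3. Over all genes limma called 2.88% of the pairs between days and 0.797% of those between types. Of the 24 pairs of 8 catenins and junction partners between days, limma and edgeR each called 1 and DESeq2 5. The limma call was *Ctnnb1*, which encodes β-catenin. It rose from 3120 ± 1620 (SD, n = 3) in NMPs to 7619 ± 1099 (n = 16) normalised reads on day 4, by 1.42 ± 0.23 (adjusted p = 1.3e-05). The gene was higher in 16 of 16 day 4 libraries, without overlap.

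Of 3 nectins, immunoglobulin-like partners of cadherin junctions, *Nectin2* fell by 2.24 ± 0.32 on the log2 scale, from 5409 ± 291 in NMPs to 1235 ± 435 on day 4 (adjusted p = 1.2e-06). Both *Ctnnb1* and *Nectin2* were called under all 10 alternatives and in all 65 omissions. *Nectin3* rose from day 4 to day 6 in p3 by 1.42 ± 0.37 (adjusted p = 0.0060), a call lost by edgeR, without the 4 libraries under 11000 genes, and without any 1 of 4 p3 libraries (100 nM replicate 3 or 500 nM replicate 1 on day 4, 100 nM or 500 nM replicate 3 on day 6), with changes from 1.17 to 1.59.

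Repressors of E-cadherin transcription (*Snai1*, *Snai2*, *Zeb1*, *Zeb2*, *Twist1*) gave 15 pairs between days. Limma called 0 of them, against 2.88% over all genes, with 6 at an unadjusted p below 0.05, edgeR 0 and DESeq2 2.

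The δ-protocadherins, relatives of the classical cadherins that also act in cell adhesion and migration, gave calls between types. Of 9 genes 8 were tested, and limma called 5 of 48 pairs, edgeR 3 and DESeq2 16, where limma called 0.797% of the pairs of all genes. *Pcdh18* was lower in p3 on days 5 and 6, with 217 ± 127 normalised reads (SD, n = 11) against 939 ± 373 in pMN (n = 11), 934 ± 488 in p2 and 867 ± 433 in p0-1 (n = 12 each). The p3 libraries overlapped neither those of pMN nor those of p2, as for 0.0859% and 0.107% of all genes. The log2 differences were -2.72 ± 0.52, -2.63 ± 0.51 and -2.48 ± 0.51 (adjusted p = 0.0011, 0.00075 and 0.0012), and the 3 comparisons share the p3 libraries. Each was called in all 65 omissions, with changes from -3.08 to -2.02, from -2.99 to -1.94 and from -2.84 to -1.78. None was called when day 6 or the compared libraries were fitted alone, and with day 5 alone the call was kept against pMN only. p3 and pMN share 100 and 500 nM SAG. At 500 nM limma called 0 of the 8 protocadherins tested between them. At 100 nM *Pcdh18* in p3 was below pMN by -3.37 ± 0.69 (adjusted p = 0.0045, 6 of 6 libraries, without overlap, as for 0.945% of all genes). That call was lost by edgeR, and without any 1 of the 6 pMN libraries or replicate 2 of p3 on day 6, with changes from -4.09 to -1.98.

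*Pcdh19* was lower in p3 than in p0-1 (58.1 ± 69.7 against 469 ± 328, -4.33 ± 0.87, adjusted p = 0.0011). These types share no SAG concentration, so type and concentration cannot be told apart here. *Pcdh17* was lower in p3 than in p2 (15.2 ± 22.5 against 216 ± 159, -4.15 ± 0.90, adjusted p = 0.0033), a call lost without p3 at 500 nM on day 5 replicate 1 or day 6 replicate 1 or 3, with changes from -4.53 to -3.74. edgeR called neither of these, nor was either called with day 5 or day 6 alone, and the *Pcdh17* call was also lost when the compared libraries were fitted alone. The median log2 difference between p3 and p0-1 was -1.99 over the 8 protocadherins tested, -0.53 over the 10 cadherins and -0.07 over all genes. Genes of the floor plate, the ventral midline next to p3, moved with p3. *Foxa2* encodes a transcription factor of the floor plate, which the study also reports in p3 progenitors. The gene had 232 to 1773 normalised reads in the 6 p3 libraries of day 5 and 453 to 3100 in the 5 of day 6. On these days it reached at most 368 in pMN, 136 in p2 and 138 in p0-1. *Shh*, the floor plate signal, had 0.880 to 399.7 in p3 on day 5 and 133 to 1335 on day 6, and at most 33.2 in the other types. Their part in the p3 differences, that of *Cdh6* included, was not tested.

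*Pcdh17* also rose with time, from 4.29 ± 9.68 normalised reads on day 4 (n = 16) to 59.6 ± 101 on day 5 (n = 24), by 3.30 ± 0.73 (adjusted p = 0.0011). In p2 it rose by 7.43 ± 1.58 from day 4 to day 6 (adjusted p = 0.0031), a call lost by edgeR and without p2 at 100 nM replicate 2 or 10 nM replicate 3 on day 4, with changes from 6.95 to 7.90. *Pcdh18* had a called log2 change of 3.35 ± 0.88 from day 4 to day 6 in p3, but the means went the other way (427 ± 300 to 258 ± 112), and without the only p3 library at 100 nM on day 4 the change was -1.21.

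The genes most alike in profile were sought over the log2 means of the 25 groups, among 10173 genes with a mean of at least 100. *Cdh11* was most like *Baz2b* (Pearson r = 0.88) and *C130071C03Rik* (0.87), *Cdh2* like *Dhrs3* (0.86), a gene of retinoid metabolism, and *Lrig1* (0.83), and *Cdh6* like *Fbln1* (0.83) and *Celsr1* (0.80). *Cdh1* was most like *Prss8* (0.79) and *Fgfbp1* (0.78), *Cdh13* like *Thsd4* (0.77) and *Cdh6* (0.74), and *Cdh4* like *Lap3* (0.71) and *Dram2* (0.70). These values describe 25 groups and carry no test. The 3 NMP libraries form 1 of the 25 points and lie far from the rest for *Cdh1*.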

How the data were processed

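The 65 libraries were made with the SMART-Seq HT and Nextera XT kits, per the study's methods from PFA-fixed, antibody-sorted cells. These methods name no sorting markers for the day 3 NMPs. Per the labels, reads were assigned to mm10 genes with featureCounts, and per the study's methods they were aligned with STAR. Use of strand in counting is not given in the sources used here. The deposited signal is gene reads divided by a size factor, and libraries that failed quality control had been removed by the authors. Whole reads were recovered for 100% of the 834400 values above 0 (tolerance 0.01).

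Samples were grouped by the labels' cell type, day and SAG concentration into 25 groups of 1 to 3 libraries. Genes with a mean of at least 10 (13964 genes) were fitted with limma 3.58.1 (R 4.3.3) as log2(value + 1), with 25 group means and trended empirical Bayes. A fold change is a difference of means on this scale. The added 1 can understate the change of low genes, while libraries at 0 can push it past the ratio of means. For *Cdh6* on days 5 and 6, p3 was 3.72-fold above p0-1 by means, against a modelled log2 difference of 2.98. A call needed an adjusted p below 0.01 (Benjamini-Hochberg, within each comparison) and more than 2-fold; the interaction needed the p alone. Comparisons of types and of SAG used days 5 and 6. Alternatives were a pseudocount of 10, no filter or a mean of at least 100, quantile normalisation, TMM scaling, array weights, replicate blocks, edgeR 4.0.16, DESeq2 1.42.0 and omission of each library. A lower bound on a fold took 3 reads in each library as the floor. All 10 cadherins were named whatever their values, and list genes where they were called. Some list genes are not reported here. The members and lists were chosen with earlier results of these data known. The scripts were tested on simulated data.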

Additional observations from a re-analysis of the deposited data

How the results depend on the processing

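Calls between days numbered 4 in the main fit, 2 with a mean of at least 100 (*Cdh3* and *Cdh8* were then not tested) and 7 with array weights. From day 4 to day 6 by type the count was 1, against 2 with a pseudocount of 10, 4 with array weights, 0 by edgeR and 4 by DESeq2. DESeq2 gave 9 pairs between types, 3 between SAG concentrations, 3 between types at one concentration and 1 on day 4, where the main fit had 0 each. A pseudocount of 10 gave 1 pair between types. Leaving out the 4 libraries under 11000 genes, an alternative chosen after seeing the data like the exact permutation test, gave 1 pair between types and 3 from day 4 to day 6. Omitting single libraries gave 0 to 1 calls between types, 3 to 5 between days, 0 to 1 on day 4 and 0 to 2 from day 4 to day 6; the SAG, one-concentration and interaction counts were 0 throughout. With the replicate number as a block the counts were 4 between days and 1 from day 4 to day 6, and no call changed. Same-numbered libraries of a day had correlations of deviations of -0.04 to 0.11 (median 0.033, 3 of 186 pairs above 0.1), and differently numbered ones -0.099 to 0.092 (median -0.019, 0 of 358 above 0.1). The labels do not say whether a number marks a shared differentiation, and a weak pairing is possible. For its accessibility data the paper describes comparing types sorted from the same dish. Types of the same SAG concentration may thus share a culture here too, and the main fit took their libraries as independent. Quantile normalisation moved the median of all genes from day 3 to day 4 from -0.40 to -0.0059, with 333 of 572 calls higher against 184 of 488. Groups of 1 to 3 libraries and genes near 0 reads limit what could be detected. The causes of these differences were not tested.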
